A study of Mus musculus with 29 samples.

Results

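The genes described here build the matrix around prostate cells: collagens, laminins, small leucine-rich proteoglycans (SLRPs) and their partners. A gene was taken when its symbol named a collagen chain (Col with chain numbers) or a laminin chain (Lama, Lamb or Lamc), or when it was Dcn, Lum, Bgn, Fmod, Ogn, Fn1, Sparc, Thbs1, Thbs2, Postn, Nid1, Nid2, Hspg2, Eln or Fbn1, and when at least 1 of its probes was detected on at least 1 array (detection p below 0.01). Of 58 such genes with a named probe 46 were detected, among 10768 genes tested in all. They were split by where their products lie: 23 in the stroma, 20 in the basement membrane and 3 in neither.

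RNA of whole prostates was hybridized to Illumina MouseRef-8 v2.0 beadchips, with 1 array per mouse and 29 in all. All mice carried the TRAMP transgene on a C57BL/6 background, with SV40 large T antigen under the rat probasin promoter, which is active in prostate epithelium. The 3 OPT-tm samples were neuroendocrine (NE) tumors of OPN-/-TRAMP mice aged 18 wks, which lack osteopontin (Spp1 tm1Blh allele). The 4 T30 samples were prostates with palpable adenocarcinoma of TRAMP mice aged 30 wks. The 13 OPT18 and 5 OPT15 samples came from OPN-/-TRAMP mice of 18 and 15 wks with no palpable tumor, and the 4 T18 samples from TRAMP mice of 18 wks with none. By the labelled early classification, OPT18 held 4 Ineuntes and 9 Reliquia prostates, OPT15 held 1 and 4, and every T18 prostate was Reliquia. OPT-tm and T30 differed in genotype, age and tumor type at once, and these cannot be told apart. Osteopontin itself was not analysed here, so the knockout was not checked on the arrays.

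The stromal matrix and the basement membrane lie in different places and differ in their parts. Fibroblasts and smooth muscle cells secrete fibrillar collagens, which SLRPs bind and space, and collagen VI and glycoproteins that tie fibrils to cells. A basement membrane is a thin sheet under epithelium, around muscle cells and around vessels, in which a laminin network and a collagen IV network are linked by nidogens and perlecan. Collagen IV is made of 6 chains encoded as 3 head-to-head gene pairs: the chains of Col4a1 and Col4a2 form the common network, and those of Col4a5 and Col4a6 a network found under some epithelia and around smooth muscle.

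The start regions of 2 of these pairs are shown because the pairs behaved differently in NE tumors: Col4a5 and Col4a6 were below detection there, whereas Col4a1 and Col4a2 were detected in every sample. Each sequence runs 5′ to 3′ on the gene's own strand, from 250 bases before the start to 50 bases after it, from RefSeq on GRCm38.p6. Capitals mark GC boxes (GGGCGG or CCGCCC) and CCAAT boxes (CCAAT or ATTGG), searched on both strands. Col4a1 lies at chr8:11312777-11313076 on the minus strand, Col4a2 at chr8:11312555-11312854 on the plus strand, Col4a5 at chrX:141475169-141475468 on the plus strand and Col4a6 at chrX:141474027-141474326 on the minus strand.
Col4a1: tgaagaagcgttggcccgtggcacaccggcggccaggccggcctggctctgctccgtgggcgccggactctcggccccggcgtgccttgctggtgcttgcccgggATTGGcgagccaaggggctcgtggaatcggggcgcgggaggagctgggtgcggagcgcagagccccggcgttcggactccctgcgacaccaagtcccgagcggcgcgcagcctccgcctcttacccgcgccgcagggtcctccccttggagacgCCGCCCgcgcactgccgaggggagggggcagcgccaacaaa
Col4a2: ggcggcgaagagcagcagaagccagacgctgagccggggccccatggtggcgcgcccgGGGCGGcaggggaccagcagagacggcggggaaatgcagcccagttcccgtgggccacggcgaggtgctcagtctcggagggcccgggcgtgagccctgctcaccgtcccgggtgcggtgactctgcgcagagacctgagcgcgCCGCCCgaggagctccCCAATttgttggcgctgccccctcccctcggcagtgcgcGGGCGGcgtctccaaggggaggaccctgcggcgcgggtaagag
Col4a5: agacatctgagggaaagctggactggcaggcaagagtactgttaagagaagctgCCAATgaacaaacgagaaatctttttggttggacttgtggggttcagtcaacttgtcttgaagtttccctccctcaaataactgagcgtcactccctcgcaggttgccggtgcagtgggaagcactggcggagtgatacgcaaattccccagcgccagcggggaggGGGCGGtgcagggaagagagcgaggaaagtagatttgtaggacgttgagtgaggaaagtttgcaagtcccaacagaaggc
Col4a6: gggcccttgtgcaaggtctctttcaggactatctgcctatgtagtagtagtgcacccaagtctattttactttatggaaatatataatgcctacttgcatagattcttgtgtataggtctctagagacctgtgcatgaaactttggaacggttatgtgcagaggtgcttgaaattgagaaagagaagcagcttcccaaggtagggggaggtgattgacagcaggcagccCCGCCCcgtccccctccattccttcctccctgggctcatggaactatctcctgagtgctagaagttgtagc
The Col4a1 and Col4a2 windows shared 78 bases and were rich in C and G, with 74.0% and 73.7% GC and 37 and 33 CpG dinucleotides. The Col4a5 and Col4a6 windows lay 842 bases apart, with 52.7% and 48.3% GC and 11 and 3 CpG. The median over 32851 mouse promoters of the same length was 52.7% GC and 7 CpG. A GC box was present in 35.7% of all these promoters and in 21 of the 37 promoters of the 46 genes that the table held, and a CCAAT box in 37.4% and in 14 of 37. These matches describe the letters only.

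Signals are given as log2 values after quantile normalization, so that a difference of 1 is a 2-fold change. A gene was called when limma gave a Benjamini-Hochberg adjusted p below 0.05 over all genes tested and the fold change was at least 2. Of the 46 genes 18 were detected on all 29 arrays and 25 in all 5 groups. Another 6 were detected in 1 group only: Col5a2, Col4a3 and Lamb1 in T30, Col11a2 and Col25a1 in OPT18, and Col10a1 in OPT-tm. At the limit of selection, Col25a1 had a lowest detection p of 0.00877 and Col10a1 of 0.00376, each on 1 array, whereas Col24a1, Col2a1 and Lama4 reached 0.0188. These and Col5a3, Col6a6, Col9a3, Col11a1, Col13a1, Col19a1, Col27a1, Col28a1 and Postn were the 12 genes not detected on any array. Another 12 detected probes of 9 of the genes gave differences of the same sign as the probe used in 12 of 12 cases for OPT-tm against T30 and for T30 against T18, and in 9 of 12 for OPT-tm against OPT18 (opposite for Col3a1, Col6a1 and Sparc). The arrays lay on 4 beadchips by their labelled identifiers, with 1 T30 and 1 T18 prostate on each and the OPT-tm samples on chips 1, 2 and 3. Between 47.1% and 51.8% of probes were detected on arrays of chips 1 and 2, and between 38.7% and 41.9% on those of chips 3 and 4. All 7 tested NE markers were called higher in OPT-tm, both against T30 and against OPT18.

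The first question was how the matrix of NE tumors differed from that of adenocarcinoma. In OPT-tm against T30, 27 of the 46 matrix genes were called lower and 0 higher, where 12.5% of all genes were called lower and 11.5% higher. At an unadjusted p below 0.05 there were 32 genes (69.6%, against 51.4% of all genes). The median log2 difference was -1.31 over the 46 genes and -0.03 over all genes tested. For 11 genes undetected in 1 of the groups a lower bound could be given, and setting them at it gave a median of -1.21. For Fmod, Col4a4 and Col7a1, among the 27 called, this bound was 1.48-fold, 1.19-fold and 1.97-fold, short of the fold threshold. Col5a2, Col9a1, Col10a1, Col4a3 and Lamb1 were also undetected in 1 of the groups but had no such bound. They kept their fitted difference in that median. Of these, Col5a2, Col4a3 and Lamb1 entered the 46 genes only through 1 T30 array each. Over the 18 genes detected on all 29 arrays, 11 were called lower and 0 higher, with a median of -1.73. Both compartments were lower: 15 of 23 stromal genes were called (median -1.43) and 11 of 20 basement membrane genes (median -1.21). The values of all 3 OPT-tm samples lay below those of all 4 T30 samples for 27 genes, against 24.5% of all genes, and above them for 1 (Col9a2), against 24.3%. On each of the 3 chips that held both groups, all 27 called genes were lower in the OPT-tm sample.

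Between NE tumors and OPT18 prostates of the same genotype and age, the picture was narrower. There, 8 of the 46 genes were called lower and 2 higher, where 13.6% of all genes were called lower and 12.3% higher. The falls were thus near the share of all genes and the rises below it. At an unadjusted p below 0.05 there were 32 genes (69.6%), near the 67.2% of all genes. All 8 genes called lower were among the 27 called lower against T30, a comparison that used the same OPT-tm arrays. The median difference was -0.33 over the 46 genes, -0.03 over the stromal genes (4 lower, 1 higher of 23) and -0.44 over the basement membrane genes (4 lower, 1 higher of 20). Values did not overlap for 18 genes that were lower in OPT-tm, against 23.1% of all genes, and for 1 that was higher, against 20.7%.

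**Figure D1:**
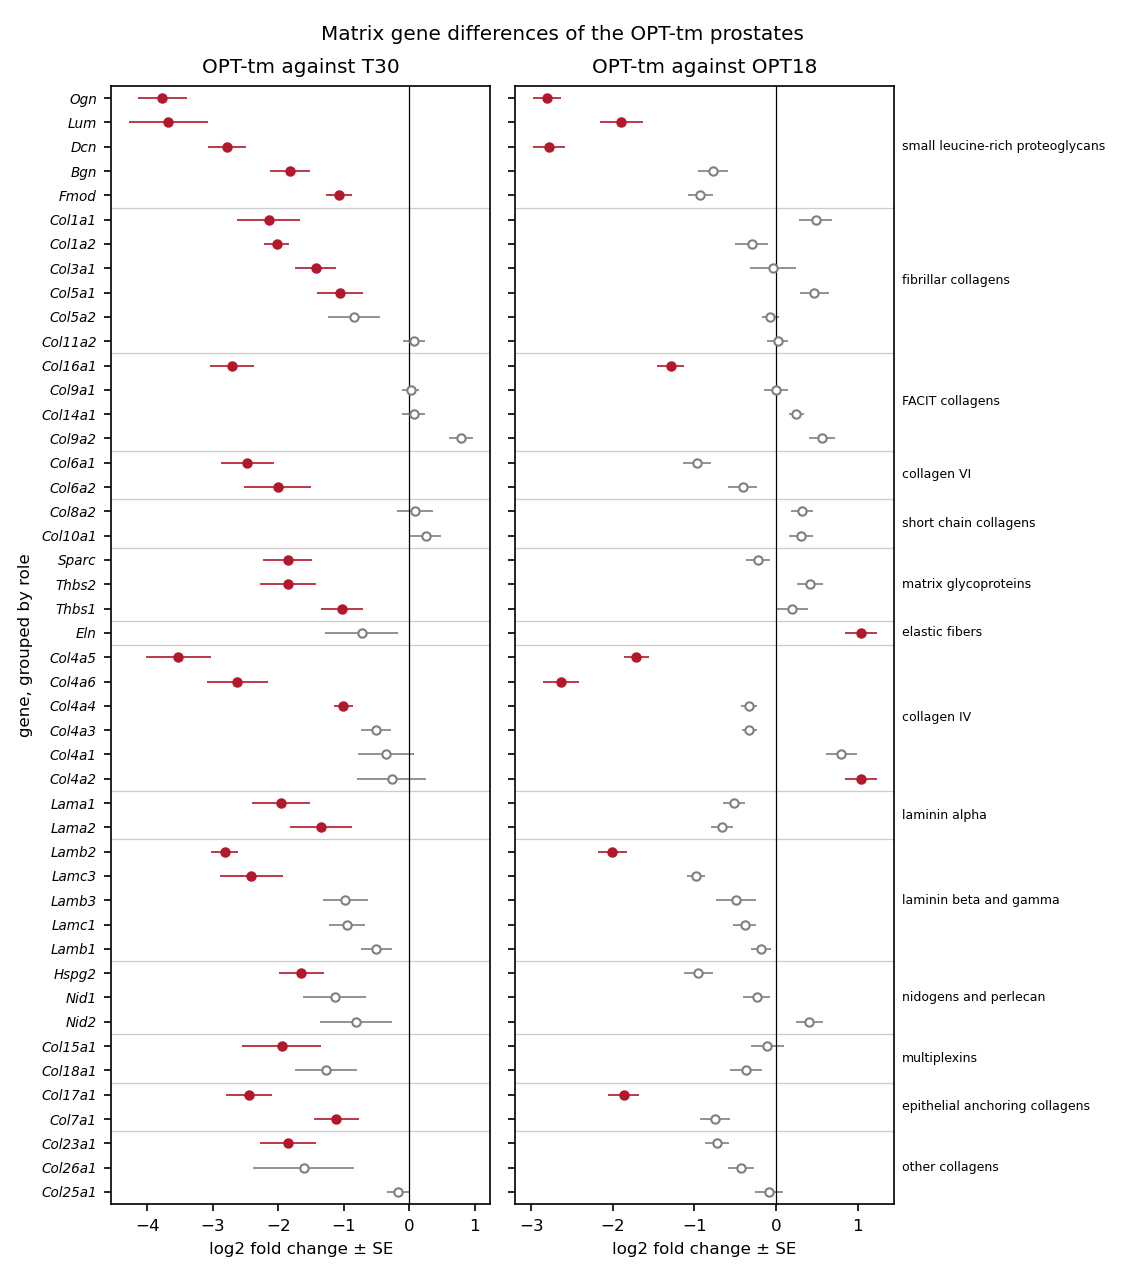
Log2 difference ± SE (limma) of each of the 46 matrix genes, grouped by role, for OPT-tm against T30 (left) and OPT-tm against OPT18 (right); filled red points are called genes. Against T30 27 genes are called and all lie left of 0, whereas against OPT18 10 are called and the fibrillar collagens lie between -0.30 and 0.49.

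Among the roles, SLRPs had the lowest median difference both against T30 (-2.78, 5 of 5 called lower) and against OPT18 (-1.90, 3 of 5 called lower). Ogn (osteoglycin, which binds collagen fibrils) measured 8.63, 9.89 and 9.58 in the OPT-tm samples of chips 1, 2 and 3, against 12.76, 13.96, 13.09 and 12.73 in the T30 prostates of chips 1 to 4. In the 13 OPT18 prostates it ran from 11.91 to 12.40 with a median of 12.23. The NE tumors lay below every other prostate of both groups. The difference was -3.77 ± 0.38 (SE) against T30 (adjusted p = 0.00012) and -2.81 ± 0.17 against OPT18 (adjusted p = 1.1e-10). Other Ogn probes, detected on 13 and 19 arrays, gave smaller falls, of -1.15 and -2.10 against T30 and -0.81 and -1.39 against OPT18.

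Dcn encodes decorin, the main SLRP of most connective tissues. Its OPT-tm values were 12.14, 13.21 and 12.22, its T30 values 15.18, 15.77, 15.19 and 15.09, and its OPT18 values ran from 14.81 to 15.78 with a median of 15.28. T30 and OPT18 prostates overlapped with one another, and the NE tumors stood apart from both. The difference was -2.78 ± 0.29 against T30 (adjusted p = 0.00014) and -2.78 ± 0.19 against OPT18 (adjusted p = 6e-10). Lum (lumican, a corneal and connective tissue SLRP encoded beside Dcn on chromosome 10) was detected in 1 of 3 OPT-tm samples, that of chip 2. Its signals were 8.25, 9.85 and 8.19 in OPT-tm, against 11.81, 13.67, 12.91 and 11.37 in T30 and 10.13 to 11.15 in OPT18. No value overlapped, and the difference was -3.68 ± 0.60 against T30 (adjusted p = 0.0016) and -1.90 ± 0.26 against OPT18 (adjusted p = 4.1e-06).

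The remaining SLRPs were called against T30 only. Bgn (biglycan) measured 12.41, 13.73 and 13.22 in OPT-tm against 14.84, 15.31, 14.92 and 14.68 in T30, a difference of -1.82 ± 0.30 (adjusted p = 0.0016). Against OPT18 its difference was -0.77 ± 0.18 (adjusted p = 0.0011), short of the fold threshold, and the groups overlapped. Fmod (fibromodulin) was not detected in any OPT-tm sample and was detected in all 4 T30 prostates, at least 1.48-fold higher there (adjusted p = 0.0029), a call lost without the T30 prostate of chip 3. Such bounds set the mean of the brighter group against, on each array of the dimmer group, the lowest signal among detected probes or the probe's own signal, whichever was higher.

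Fibrillar collagens give connective tissue its tensile strength. In OPT-tm against T30, 4 of 6 were called lower and 0 higher, but 0 of 6 were called in either direction in OPT-tm against OPT18. Col1a1, the alpha 1 chain of collagen I, measured 9.69, 10.85 and 10.13 in OPT-tm, against 11.80, 13.18, 13.08 and 11.40 in T30 and 9.28 to 10.09 (median 9.79) in OPT18. The NE tumors thus lay below all T30 prostates and partly within the OPT18 range. The difference was -2.14 ± 0.48 against T30 (adjusted p = 0.0072) and 0.49 against OPT18 (adjusted p = 0.04).

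Its partner chain Col1a2 measured 9.49, 9.69 and 9.50 in OPT-tm, 11.49, 12.04, 11.33 and 11.47 in T30, and 9.24 to 10.37 in OPT18. The difference was -2.02 ± 0.19 against T30 (adjusted p = 9.9e-05) and -0.30 against OPT18. Col3a1, whose product forms thin fibrils together with collagen I, measured 9.76, 10.29 and 9.96 in OPT-tm, against 11.33, 12.16, 10.75 and 11.50 in T30 and 9.22 to 10.78 in OPT18. It differed by -1.43 ± 0.31 from T30 (adjusted p = 0.006) and by -0.03 from OPT18, where its values overlapped throughout. Col5a1, a chain of the collagen that starts fibril formation, was called lower against T30 (-1.06 ± 0.35, adjusted p = 0.039) although the groups overlapped. This call was lost after background correction, with array medians set equal, with no filter on dim probes, and without the OPT-tm sample of chip 1 or 2 or the T30 prostate of chip 1, 2 or 3. The Col3a1 call was lost with array medians set equal.

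**Figure D2:**
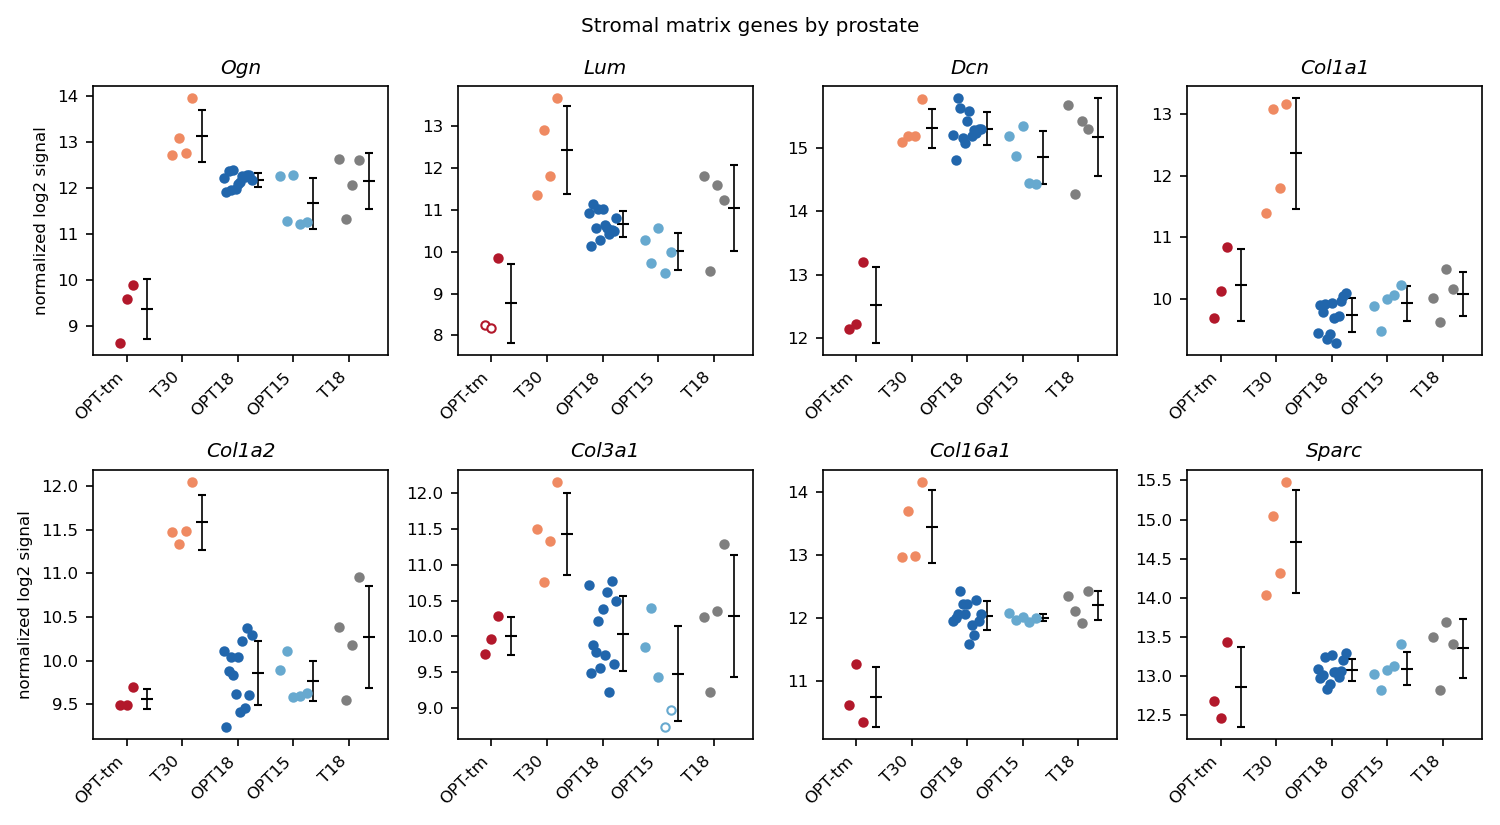
Log2 signal of 8 stromal matrix genes in each prostate by group, with the group mean ± SD; filled points are detected probes, open points undetected, and each panel has its own vertical scale. Ogn, Dcn and Col16a1 are lower in all 3 OPT-tm samples than in every other prostate of T30 and OPT18, whereas the collagen I and III chains overlap with OPT18 and have their highest mean in T30.

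Collagens that decorate or link fibrils did not move alike. Col16a1, a FACIT (fibril-associated) collagen found around smooth muscle and in skin, measured 10.61, 10.35 and 11.26 in OPT-tm, against 12.98, 14.15, 13.70 and 12.96 in T30 and 11.58 to 12.43 in OPT18. No values overlapped, with differences of -2.71 ± 0.34 from T30 (adjusted p = 0.00038) and -1.29 ± 0.17 from OPT18 (adjusted p = 2e-06). The other 3 FACIT genes were not called in either comparison. Among them Col9a2 was detected in all 3 OPT-tm samples and was undetected throughout T30, at least 1.23-fold higher (adjusted p = 0.0083). Both tested chains of collagen VI, which forms beaded filaments near cells, were called lower against T30 and neither was against OPT18. For Col6a1 the OPT-tm values were 11.69, 11.12 and 11.74, against 13.41, 14.73, 14.62 and 13.20 in T30, a difference of -2.47 ± 0.40 (adjusted p = 0.0015). It differed by -0.97 ± 0.17 from OPT18 (adjusted p = 6.5e-05), with no overlap but short of the fold threshold.

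Matrix glycoproteins were lower than in T30 and close to OPT18. Sparc, a collagen-binding protein of remodeling tissue, measured 12.68, 13.44 and 12.47 in OPT-tm, against 14.32, 15.48, 15.05 and 14.04 in T30 and 12.84 to 13.29 in OPT18. It differed by -1.86 ± 0.38 from T30 (adjusted p = 0.0045) and by -0.22 ± 0.15 from OPT18 (adjusted p = 0.21), and a second Sparc probe gave 0.25 against OPT18. Thbs2 and Thbs1, thrombospondins that bind matrix and proteases, were called lower against T30 by -1.85 ± 0.43 and -1.03 ± 0.32 (adjusted p = 0.0087 and 0.03). The Thbs1 call was lost with array medians set equal and without the OPT-tm sample of chip 2 or 3 or the T30 prostate of chip 1 or 2.

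Eln, which encodes the elastin core of elastic fibers, went the other way and was singled out after its values were seen. It measured 9.82, 10.77 and 10.78 in OPT-tm, against 10.20, 12.44, 11.77 and 10.34 in T30 and 8.81 to 9.68 in OPT18. All 3 NE tumors were above all 13 OPT18 prostates, by 1.04 ± 0.19 (adjusted p = 0.00011), and overlapped with T30 (-0.73 ± 0.55, adjusted p = 0.32). Without the OPT-tm sample of chip 2 or that of chip 3 the difference from OPT18 was 0.88, short of the fold threshold.

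In the basement membrane, the collagen IV chains split by gene pair. Col4a5 was not detected in any OPT-tm sample, with signals of 7.90, 8.16 and 8.18. It was detected in all 4 T30 prostates, at 10.75, 12.41, 12.59 and 10.66, and in all 13 OPT18 prostates, at 9.43 to 10.21. The signal was at least 7.73-fold higher in T30 (adjusted p = 0.00068) and at least 2.20-fold higher in OPT18 (adjusted p = 1.4e-08).

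Col4a6, the head-to-head partner of Col4a5, was likewise undetected in OPT-tm, at 7.78, 7.77 and 7.80. It stood at 10.29, 11.03, 11.24 and 9.07 in T30 and at 9.86 to 10.99 in OPT18, at least 3.37-fold higher in T30 (adjusted p = 0.0022) and at least 3.40-fold higher in OPT18 (adjusted p = 6.7e-09). The pair was thus below detection in the NE tumors and detected in every T30 and OPT18 prostate.

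Col4a1 and Col4a2, the chains of the common network, were detected in all 29 prostates. Col4a1 measured 12.65, 13.24 and 12.92 in OPT-tm, against 12.72, 14.51, 13.35 and 12.61 in T30 and 11.67 to 12.74 (median 12.07) in OPT18. The NE tumors lay within the T30 range, and those of chips 2 and 3 lay above every OPT18 prostate. The difference was -0.36 ± 0.43 from T30 (adjusted p = 0.53) and 0.80 ± 0.19 from OPT18 (adjusted p = 0.001, short of the fold threshold).

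Col4a2 measured 11.34, 12.23 and 12.26 in OPT-tm, against 11.44, 13.63, 12.34 and 11.44 in T30 and 10.58 to 11.39 in OPT18. It was called higher against OPT18, by 1.04 ± 0.20 (adjusted p = 0.00014), although the chip 1 sample fell inside the OPT18 range, and differed by -0.27 ± 0.53 from T30 (adjusted p = 0.71). Without the OPT-tm sample of chip 2 or of chip 3 the difference from OPT18 was 0.89 or 0.88, and with the chip as a block it was 0.89 (adjusted p = 0.0013), each short of the fold threshold. The third pair, Col4a3 and Col4a4, whose products belong to the kidney glomerulus and a few other tissues, was near the detection limit: Col4a3 was detected on 1 array and Col4a4 on 4. Col4a4 was undetected in OPT-tm and at least 1.19-fold higher in T30 (adjusted p = 0.00099), where 3 of 4 prostates were above detection, a call lost without the OPT-tm sample of chip 1 or the T30 prostate of chip 1, 2 or 3.

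**Figure D3:**
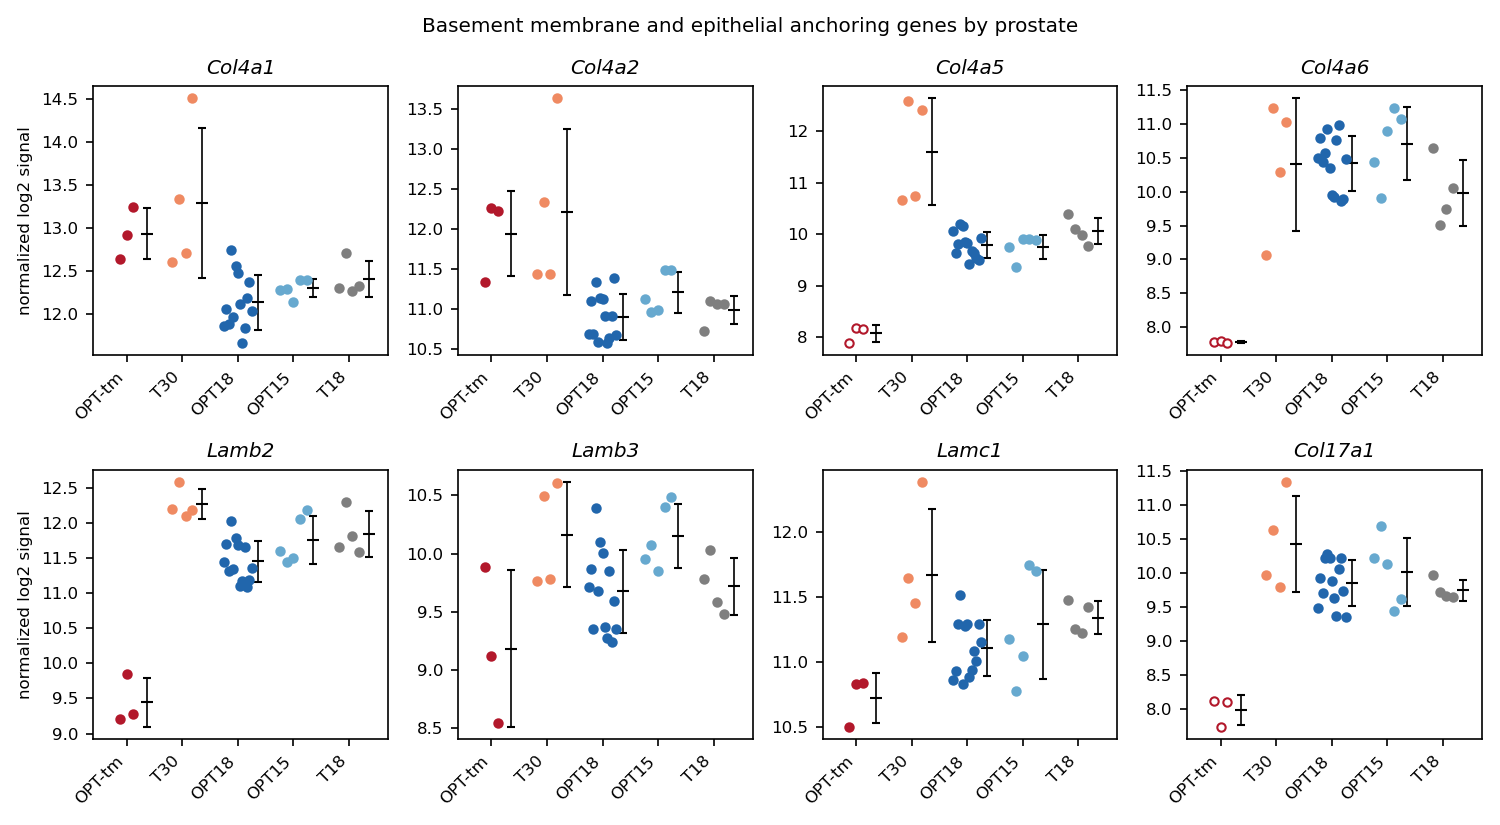
Log2 signal of 8 basement membrane genes in each prostate by group, with the group mean ± SD; filled points are detected probes, open points undetected, and each panel has its own vertical scale. Col4a5, Col4a6 and Col17a1 are open in all 3 OPT-tm samples, whereas Col4a1 and Col4a2 are filled in every prostate.

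Laminins are trimers of an alpha, a beta and a gamma chain, and the tested chains differed in how far they fell. Lamb2, the beta 2 chain of muscle, nerve and vessel basement membranes, measured 9.21, 9.28 and 9.85 in OPT-tm, against 12.10, 12.18, 12.58 and 12.20 in T30 and 11.09 to 12.02 in OPT18. The 3 NE tumors were below all others, by -2.82 ± 0.20 against T30 (adjusted p = 2.2e-05) and -2.00 ± 0.18 against OPT18 (adjusted p = 2.2e-08).

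Lamc1, the gamma 1 chain of most laminins, measured 10.50, 10.83 and 10.83 in OPT-tm, against 11.45, 12.39, 11.65 and 11.19 in T30 and 10.83 to 11.52 in OPT18. Its differences of -0.95 ± 0.27 from T30 (adjusted p = 0.023) and -0.38 ± 0.14 from OPT18 (adjusted p = 0.02) did not reach the fold threshold. Lamb3, a chain of the laminin that anchors epithelium, differed by -0.98 ± 0.35 from T30 (adjusted p = 0.049) and -0.49 ± 0.24 from OPT18 (adjusted p = 0.083), with overlap in both. Lamc3 was undetected in OPT-tm and detected in all T30 prostates, at least 2.85-fold higher there (adjusted p = 0.0042). Of the alpha chains, Lama1 was undetected in OPT-tm and at least 2.74-fold higher in T30 (adjusted p = 0.0073), and Lama2, the muscle chain, was called lower by -1.34 ± 0.47 (adjusted p = 0.049). The Lama2 call was lost with array medians set equal, with no filter on dim probes, without any 1 of the OPT-tm samples, and without the T30 prostate of chip 2 or of chip 3. Neither alpha chain was called against OPT18.

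Of the 3 linkers of both networks 1 was called lower against T30 and 0 against OPT18. Hspg2 (perlecan) was called lower against T30, by -1.65 ± 0.34 (adjusted p = 0.005), and differed by -0.95 ± 0.18 from OPT18 (adjusted p = 0.00012), short of the fold threshold. Nid1 and Nid2, the nidogens, were not called in either comparison. Of the multiplexins, collagens that carry glycosaminoglycan chains at basement membranes, Col15a1 was called lower against T30 (-1.95 ± 0.60, adjusted p = 0.029, with overlap) and Col18a1 was not (-1.27 ± 0.48, adjusted p = 0.059). The Col15a1 call was lost with array medians set equal, with no filter on dim probes, and without the OPT-tm sample of chip 1 or 3 or the T30 prostate of chip 2 or 3.

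Both collagens that fasten epithelium to its basement membrane were lower in NE tumors than in T30. Col17a1, a transmembrane collagen of hemidesmosomes in basal epithelial cells, was undetected in OPT-tm, at 8.11, 8.11 and 7.74. It was detected in every T30 prostate, at 9.79, 11.34, 10.63 and 9.97, and in every OPT18 prostate, at 9.35 to 10.29. It was at least 3.43-fold higher in T30 (adjusted p = 0.00079) and at least 2.30-fold higher in OPT18 (adjusted p = 1e-07). Col7a1, the collagen of anchoring fibrils, was undetected in OPT-tm and at least 1.97-fold higher in T30 (adjusted p = 0.03), and was not called against OPT18. Its call was lost with array medians set equal, with no filter on dim probes, without any 1 of the OPT-tm samples, and without the T30 prostate of chip 2 or 3. Of the 3 collagens placed in neither compartment, the transmembrane collagen Col23a1 was called lower, undetected in OPT-tm and at least 2.68-fold higher in T30 (adjusted p = 0.0086).

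Cell type markers differed as well, though not all alike, and in bulk tissue fewer cells of a type and less RNA per cell cannot be told apart. Against OPT18 the median difference was -3.02 over the smooth muscle markers but -0.03 over the stromal matrix genes. Among all genes, 12.5% were called lower and 11.5% higher against T30, and 13.6% and 12.3% against OPT18. Of 10 tested smooth muscle markers 8 were called lower in OPT-tm against T30 and 9 against OPT18. Their summed signal was 28728 to 36713 in OPT-tm, against 160176 to 195603 in T30 and 161008 to 216978 in OPT18, and Cnn1 and Lmod1 were undetected in OPT-tm, as was Synpo2, which was undetected in T30 too. Of 5 basal epithelial markers 5 were called lower than in T30 and 4 lower than in OPT18, with a summed signal of 1611 to 2423 in OPT-tm, 11796 to 45524 in T30 and 8332 to 14548 in OPT18. Krt5, Krt14 and Trp63 were undetected in OPT-tm. Of 13 fibroblast markers, 8 were called lower against T30, and 4 lower and 1 (Pdgfra, a growth factor receptor) higher against OPT18. Their summed signal was 17892 to 28902 in OPT-tm, 22039 to 61600 in T30 and 14278 to 19023 in OPT18. Against OPT18 the median over these markers went the other way. Their median log2 difference from T18 was -1.40 to -0.39 in OPT-tm, 0.27 to 1.68 in T30 and -0.20 to 0.09 in OPT18. Pdgfrb, Fap, S100a4, Twist2 and Tcf21 were undetected in OPT-tm, and Fap was undetected in OPT18 too. Of 8 endothelial markers 0 were called in either comparison, with a summed signal of 7715 to 13607 in OPT-tm, 11316 to 38507 in T30 and 9395 to 12709 in OPT18. Luminal markers were called lower in OPT-tm for 4 of 6 against T30 and 5 of 6 against OPT18, urothelial markers for 2 of 5 and 4 of 5, and skeletal muscle markers for 1 of 5 and 5 of 5. Macrophage markers were called lower for 1 of 3 against T30 and 0 of 3 against OPT18, and lymphocyte markers for 1 of 4 and 0 of 4. All 7 seminal vesicle markers, genes of a neighbouring gland, also fell in both comparisons. Their sum was 1838 to 2929 in OPT-tm, and the T30 prostate of chip 1 stood near it at 3270, whereas the other T30 prostates had 351438 to 400888. The part of these cell types in the matrix differences was not tested.

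The genes that make, cut and bind this matrix gave a mixed picture. Against T30, 12.5% of all genes were called lower in OPT-tm and 11.5% higher. Of 20 tested genes of collagen biosynthesis and crosslinking, 6 were called lower and 0 higher in OPT-tm against T30, led by Lox, the lysyl oxidase that crosslinks collagen and elastin (-3.21 ± 0.59, adjusted p = 0.0026), and Pcolce, an enhancer of procollagen processing (-2.14 ± 0.35, adjusted p = 0.0015). Against OPT18, 1 was called lower and 1 higher, both below the 13.6% and 12.3% of all genes. The lower gene was P4hb, a subunit of prolyl 4-hydroxylase (-1.25 ± 0.09, adjusted p = 1.9e-09). The higher gene was Bmp1, the protease that trims procollagen C-ends (2.18 ± 0.14, adjusted p = 2.7e-10). Bmp1 ran from 11.67 to 12.06 in OPT-tm and from 9.44 to 10.24 in OPT18.

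Of 18 tested genes of matrix breakdown and its inhibitors, 5 were lower and 2 higher in both comparisons. Among all genes, 12.5% were called lower and 11.5% higher against T30, and 13.6% and 12.3% against OPT18. The 2 rises were thus near the share of all genes. The 2 higher genes were the collagenase Mmp13 (1.41 ± 0.26 against T30 and 1.73 ± 0.19 against OPT18, adjusted p = 0.0026 and 2e-07) and the aggrecanase Adamts4 (1.21 ± 0.37 against T30, adjusted p = 0.028). Adamts4 was undetected in all 13 OPT18 prostates and at least 2.04-fold higher in OPT-tm (adjusted p = 5.5e-09). The epithelial protease Mmp7 was lower by -3.23 ± 0.74 and -3.83 ± 0.33 (adjusted p = 0.0082 and 1.2e-08). Of 11 receptors of collagen and laminin, 3 were lower than in T30 and 2 lower than in OPT18. Itga3, the alpha chain of a laminin-binding integrin of epithelium, was lowest in both, by -3.00 ± 0.28 and -2.17 ± 0.19 (adjusted p = 8.5e-05 and 1.5e-08), followed by Itgb4, the integrin chain of hemidesmosomes (-1.44 ± 0.21 and -1.01 ± 0.13, adjusted p = 0.00077 and 2.5e-06).

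The second question was how the matrix of TRAMP adenocarcinoma differed from that of younger TRAMP prostates. In T30 against T18, 4 of the 46 genes were called higher and 0 lower, where 0.241% of all genes were called higher and 1.24% lower. All 4 were stromal, and 26 genes (56.5%, against 17.6% of all genes) had an unadjusted p below 0.05. Differences were above 0 for 44 of 46 genes with a median of 0.89 (0.00 over all genes tested), 1.15 over the stromal genes and 0.72 over the basement membrane genes. Among the 44, Col5a2, Col4a3 and Lamb1 (0.74, 0.21 and 0.36) entered the 46 genes only through 1 T30 array each. Over the 18 genes detected on all 29 arrays, 18 differences were above 0, with a median of 0.96. The T30 values lay above all T18 values for 19 genes, against 5.26% of all genes, and below them for 0, against 6.58%.

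Col1a1 had 11.80, 13.18, 13.08 and 11.40 in T30 against 10.02, 10.49, 9.63 and 10.16 in T18, a difference of 2.29 ± 0.40 (adjusted p = 0.018). Every T30 prostate was above every T18 prostate. Col1a2 had 11.49, 12.04, 11.33 and 11.47 in T30 against 10.39, 10.18, 9.55 and 10.96 in T18 (1.31 ± 0.28, adjusted p = 0.045). Thbs2 had 11.51, 12.75, 11.63 and 10.55 in T30 against 9.85, 9.82, 9.12 and 9.80 in T18 (1.96 ± 0.39, adjusted p = 0.036). For both genes the groups did not overlap either. Col16a1 had 12.98, 14.15, 13.70 and 12.96 in T30 against 12.35, 11.92, 12.10 and 12.42 in T18 (1.25 ± 0.27, adjusted p = 0.045), again without overlap. The gelatinase gene Mmp2 was the 1 breakdown gene called higher (1.63 ± 0.33, adjusted p = 0.036). Eln (1.97 ± 0.46, adjusted p = 0.066) and Sparc (1.36 ± 0.32, adjusted p = 0.063) did not pass the test. All 4 called genes were higher in T30 on each of the 4 chips. With the chip as a block, however, Col1a1 stayed called and Col1a2, Thbs2 and Col16a1 did not pass (adjusted p = 0.071, 0.067 and 0.11), whereas Thbs1 did. The count also depended on single prostates: it was 0 without the T30 or the T18 prostate of chip 3, 1 without any other T18 prostate, and 10 without the T30 prostate of chip 1.

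The 4 T30 prostates did not contribute equally. Set against the T18 prostate of the same chip, the median of the 46 genes was 0.19 on chip 1, 1.74 on chip 2, 1.35 on chip 3 and 0.25 on chip 4. Differences above 1 were found for 7, 33, 26 and 1 of the 46 genes. Col4a5 showed the same split of chips 2 and 3 from chips 1 and 4. Its T30 signals were 12.41 and 12.59 on chips 2 and 3 and 10.75 and 10.66 on chips 1 and 4. Some marker sums moved with them: fibroblast markers summed to 26586, 61600, 38316 and 22039 in the T30 prostates of chips 1 to 4, against 13999 to 20288 in T18. Endothelial markers summed to 11316, 38507, 19352 and 12577, against 6773 to 11293 in T18, and basal epithelial markers to 11796, 45524, 35375 and 18311, against 10606 to 12996. Other sums did not: smooth muscle markers had 195603, 160183, 160176 and 163909, against 193677 to 243153 in T18. Luminal sums ran from 70043 to 79458 in T30, and urothelial sums were 45224, 14415, 25826 and 43226. None of the fibroblast, smooth muscle or endothelial markers was called between T30 and T18. Of 5 basal markers 1 (Krt15, -1.48) was called lower in T30 despite the higher sums, and of 5 skeletal muscle markers 4 were (median -3.32). The part of these cell types in the result was not tested. With the T30 prostates of chips 2 and 3 left out, an alternative chosen after seeing the data, 2 genes were called higher than in T18. In the same alternative 20 genes were called lower in OPT-tm than in T30, with medians of -1.13 (stroma) and -0.60 (basement membrane).

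**Figure D4:**
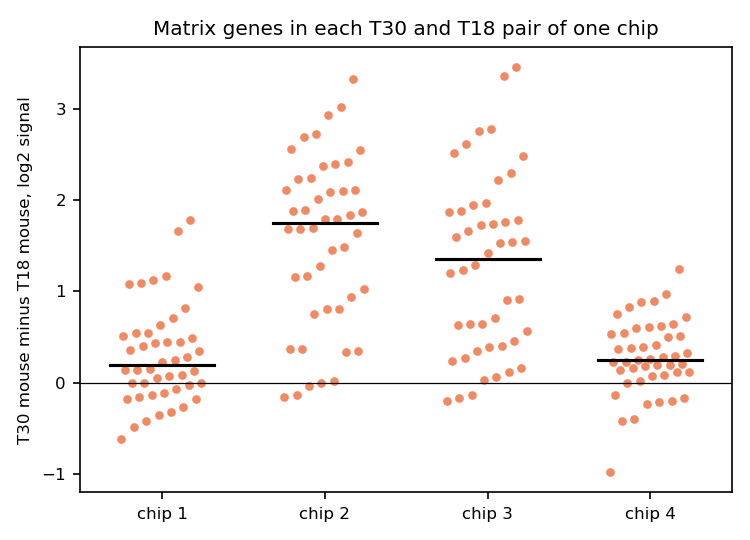
Log2 difference of each T30 prostate from the T18 prostate on the same beadchip, 1 point per matrix gene and a bar at the median, for chips 1 to 4. The medians are 0.19, 1.74, 1.35 and 0.25.

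The early groups showed little difference in these genes. In OPT18 against T18, 0 of the 46 genes were called, where 0.00929% of all genes were called higher and 0.0186% lower. No gene had groups without overlap (0.0743% of all genes were higher and 0.167% lower in that way). Differences ran from -0.41 to 0.43 with a median of -0.08, and 4 genes (8.7%, near the 6.74% of all genes) had an unadjusted p below 0.05 (Lamb2, Col1a1, Col6a1 and Sparc, all with negative differences). In OPT18 against OPT15, 0 were called by limma, where 0% of all genes were called in either direction. Groups without overlap were again found for 0 genes (0.0279% of all genes higher, 0.0929% lower). There 13 genes (28.3%, against 21% of all genes) had an unadjusted p below 0.05, and the lowest adjusted p was 0.1 (Lum, 0.65). Differences were positive for Lum, Col3a1, Ogn, Thbs2, Dcn and Col5a1 and negative for Hspg2, Lamb3, Fmod, Col15a1, Col7a1, Lamc3 and Col4a2. None of these 13 passed the test. Lum ran from 10.13 to 11.15 (median 10.57) in OPT18 and from 9.48 to 10.58 (median 9.98) in OPT15, and Hspg2 from 10.60 to 11.42 (median 11.07) in OPT18 and from 10.99 to 12.20 (median 11.31) in OPT15. The groups overlapped for both genes. Col4a5 and Col4a6, undetected in the NE tumors, were detected in every OPT15 and T18 prostate as well, Col4a5 at 9.36 to 9.91 in OPT15 and 9.77 to 10.39 in T18, and Col4a6 at 9.90 to 11.23 in OPT15 and 9.51 to 10.64 in T18. Between the 4 Ineuntes and the 9 Reliquia prostates of OPT18, differences ran from -0.45 to 0.28 with a median of -0.08 (0.03 in the stroma, -0.13 in the basement membrane). Values did not overlap for 1 gene that was lower in Ineuntes and 0 that were higher, against 2.59% and 4.85% of all genes. The paper formed its early classes by clustering these arrays on gene expression. These shares are therefore not an independent background, and no test was run between the classes.

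The 2 tumor comparisons were then set against each other. The difference of OPT-tm from OPT18 minus that of T30 from T18 was called negative for 25 of the 46 genes and positive for 0, where 12.1% and 10.9% of all genes were called. Its median was -1.21, and -1.51 over the 18 genes detected on all 29 arrays. Of the 25, 23 were among the 27 genes lower in OPT-tm than in T30, which use the same tumor arrays. By compartment 12 of 23 stromal and 11 of 20 basement membrane genes were called, and among the SLRPs 5 of 5. Ogn had the lowest value at -3.78 ± 0.36 (adjusted p = 1.4e-08), from -2.81 in OPT-tm against OPT18 and 0.97 in T30 against T18. Other detected Ogn probes gave -1.18 and -1.89. Within the TRAMP mice, age and tumor cannot be told apart.

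Each prostate was also summarised by the median log2 difference of its stromal and of its basement membrane genes from the T18 mean. The OPT-tm samples of chips 1, 2 and 3 had -0.38, 0.08 and -0.32 for the stroma and -0.69, -0.37 and -0.65 for the basement membrane. Over the 23 and 20 genes the stroma was above the basement membrane in each NE tumor, by 0.31 to 0.45, a gap that the T30 prostate of chip 1 (0.41) and 1 OPT18 prostate (0.31) also reached. Over the 10 stromal and 8 basement membrane genes detected on every array the order was turned in all 3, with -0.96, -0.42 and -0.83 for the stroma and -0.49, -0.23 and -0.70 for the basement membrane, so that no order between the compartments can be read from these medians. The T30 prostates of chips 1 to 4 had 0.60, 1.80, 0.93 and 0.38 for the stroma and 0.19, 1.72, 1.08 and 0.25 for the basement membrane. OPT18 prostates ran from -0.30 to 0.07 and from -0.38 to 0.21, OPT15 prostates from -0.23 to -0.07 and from -0.09 to 0.23, and T18 prostates from -0.28 to 0.12 and from -0.08 to 0.13. The stromal medians of 2 of the 3 NE tumors lay just below the OPT18 range and the third just above it.

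**Figure D5:**
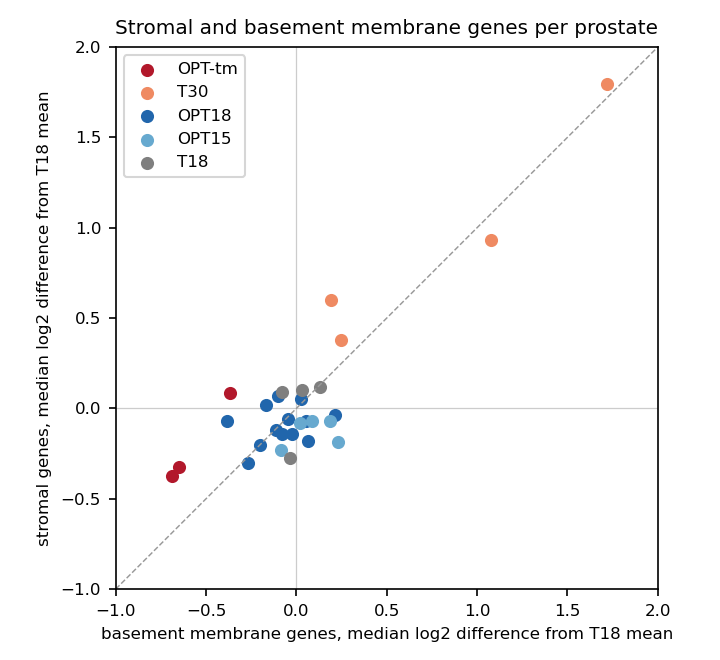
Each prostate by the median log2 difference from the T18 mean of its basement membrane genes (horizontal) and its stromal genes (vertical), 1 point per prostate and a colour per group. The 3 OPT-tm samples lie at basement membrane values of -0.69 to -0.37 and the 4 T30 prostates at 0.19 to 1.72.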

How the data were processed

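The authors read the arrays with BeadStudio v3.3.8 and deposited non-normalized probe intensity values with a detection p-value per probe, and a table of log2 values normalized by robust spline (lumi; its version is not given in the sources used here). Here, the intensity values were taken to log2 without background correction and quantile normalized over 29 arrays with limma 3.58.1 in R 4.3.3. Of 25697 probes, 23978 had 1 gene symbol in the platform annotation, 1719 had none and 0 several. Probes with a detection p below 0.01 on at least 1 array were kept (15825), and each gene took the values of its most often detected probe (10768 genes). Groups came from the sample labels, and each of the 6 contrasts was fitted with lmFit and eBayes on its own groups, with Benjamini-Hochberg adjustment over all genes. A call needed an adjusted p below 0.05 and a fold of at least 2. Each array is 1 mouse by the labels, and precision is limited by the small number of arrays. Scripts were tested on simulated data. The genes, lists and tests were chosen with earlier results of these data known. Genes to be named were up to 12 called genes with the largest absolute difference in OPT-tm against T30, up to 8 in each other comparison, up to 6 in the difference of differences, and Col1a1, Col1a2, Col3a1, Col4a1, Col4a2, Lamb3, Lamc1, Dcn and Sparc in any case, with up to 2 rises and 2 falls of each pathway list. Other genes were described after their values were seen. Not analysed here for want of a named probe were Fn1, Fbn1, Lama3, Lama5 and 8 collagens.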

Additional observations from a re-analysis of the deposited data

Results flagged for a closer look

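Of 60 group and gene combinations tested for a sample far from the others of its group (20 genes in the 3 groups of 4 to 10 samples), 5 had one, where chance gives about 1 in 20. The OPT15 prostate of chip 4, the Ineuntes one, had a Col4a5 signal of 9.36, against 9.75 to 9.91 in the other OPT15 prostates. The T30 prostate of chip 2 had a Dcn signal of 15.77, against 15.09 to 15.19 in the other T30 prostates. In T18, the prostate of chip 3 was high for Col4a1 (12.72, the others 12.27 to 12.33) and low for Thbs2 (9.12, the others 9.80 to 9.85), and that of chip 1 was low for Col4a2 (10.73, the others 11.06 to 11.11). The difference of OPT-tm from OPT18 and that of T30 from T18 were themselves different in limma for 6 named genes: Ogn by -3.78, Lum by -3.29, Col4a5 by -3.25, Col4a6 by -3.05, Dcn by -2.92 and Col17a1 by -2.55 on the log2 scale. For Col4a5, Col4a6 and Col17a1 these values rest on signals below detection in OPT-tm. Other detected probes gave -1.18 and -1.89 for Ogn, -0.76 and -1.95 for Col17a1, -2.40 for Col4a6 and -3.29 for Dcn.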

How the results depend on the processing

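No paired analysis was possible because the labels number mice singly and no number is shared between groups. The count of genes lower in OPT-tm than in T30 (27) ran from 20 to 32 over the alternatives (21 to 29 with 1 prostate left out), and 1 gene was called higher after background correction with neqc. Of genes lower than in OPT18 (8), neqc gave 16 and the other alternatives 8 to 12. Of genes higher than in OPT18 (2), the chip as a block gave 1, with Col4a2 lost, and leaving out 1 sample 0 to 2. The count of genes higher in T30 than in T18 (4) was 2 with neqc, 0 with array medians set equal, 1 with no filter on dim probes, 18 with all 29 arrays in one fit, 2 with the chip as a block (Col1a2, Col16a1 and Thbs2 lost, Thbs1 gained), and 2 without the T30 prostates of chips 2 and 3 (chosen after seeing the data). Leaving out 1 prostate gave 0 to 10, namely 10, 3, 0 and 6 without the T30 prostate of chip 1, 2, 3 and 4, and 1, 1, 0 and 1 without the T18 prostate of each. In the difference of differences 25 genes were negative, 16 without the T30 prostates of chips 2 and 3, and neqc gave 1 positive. Col4a1 against T30 turned to 0.046 without the T30 prostate of chip 2 (-0.59 to 0.046 with 1 prostate left out) and 0.27 without those of chips 2 and 3. Col4a2 against T30 turned to 0.03 without the OPT-tm sample of chip 1, 0.20 without the T30 prostate of chip 2 (-0.53 to 0.20 with 1 left out) and 0.50 without those of chips 2 and 3. Col3a1 against OPT18 turned to 0.040 with array medians set equal, 0.29 with the chip as a block, 0.034 without the Ineuntes prostates and 0.089 without the OPT-tm sample of chip 1 (-0.18 to 0.089 with 1 left out). The cause was not tested. Over all values of single named genes under alternatives, 625 kept direction and side of the threshold, 43 fell short of it, 9 newly passed it and 9 changed sign. The counts of called genes are not part of this tally. Genes undetected in a whole group have at most a bound there.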
